A study of Mus musculus with 3 samples.

Results

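The complement genes described here are *C3*, *C1qa*, *C1qb*, *C1qc*, *Cfb*, *Cfp*, *C3ar1*, *C5ar1* and *Serping1*, which are 9 of the 26840 genes with a symbol on the array. They were chosen by name, as every gene probe whose listed gene is one of them, and all 9 were found. RNA came from RAW macrophages, a mouse line derived from a virus-induced tumour, and was labelled with Cy3 and hybridised to 1-colour SurePrint G3 arrays. There were 3 conditions with 1 array each. Cells of the first condition received LPS and no lactobacilli, those of the second *L. rhamnosus* CRL1505 before LPS (CRL1505 + LPS), and those of the third *L. plantarum* CRL1506 before LPS (CRL1506 + LPS). Lactobacilli were left on the cells for 24 h, at 50000000 cells/mL, and were washed off before 50 ng/mL of LPS was given to all 3 conditions. The length of the LPS step is 12 h in the study's text and 3 h in the sample descriptions. Non-stimulated macrophages were not analysed here, so all values are differences between cells that had LPS in common.

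Complement is a cascade of plasma proteins that mark and lyse microbes. C1q binds antibody or a microbial surface and starts the classical pathway, whereas factor B and properdin build and hold the convertase of the alternative pathway, and both routes meet at the cleavage of C3. The fragments C3a and C5a act on G protein-coupled receptors of myeloid cells, and the C1 inhibitor blocks the first proteases. Most plasma complement comes from the liver, but macrophages are known to make C1q, C3, factor B and properdin themselves, and LPS is a known inducer of C3 and factor B.

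With 1 array for each condition there is no replicate, and neither a test nor a p-value can be given. A level is the log2 processed signal minus its 75th percentile over gene spots on that array, and differences are differences of such levels. A gene was called higher or lower at 2-fold, which is 1 on the log2 scale. The spread between probes of the same gene was taken as a median SD of the log2 difference. It was 0.23 for CRL1505 + LPS against LPS, 0.22 for CRL1506 + LPS against LPS, and 0.32 between the strains. An effect that all probes of a gene share on an array is not part of it. Repeated spots of a probe had a median SD of 0.048, 0.043 and 0.047 in the same order. The CRL1505 + LPS array was on a slide of its own and the other 2 arrays shared 1 slide, so that the slide and the CRL1505 strain cannot be told apart. The signal at the 75th percentile was 743.1 on LPS, 517.0 on CRL1505 + LPS and 697.9 on CRL1506 + LPS. From 48.5% to 55.3% of gene spots were well above background. All 9 macrophage markers examined were well above background on all arrays, with a summed signal before scaling of 534062 on LPS, 366827 on CRL1505 + LPS and 406884 on CRL1506 + LPS. Summed signals also carry the brightness of each array, so they do not measure the amount of macrophage transcript between arrays. Single markers moved with the strains. For CRL1505, 2 of the 9 were past 2-fold upwards and 1 downwards, beside 9.90% and 8.41% of all genes compared. For CRL1506, 1 was past 2-fold upwards and 0 downwards, beside 5.67% and 3.53%. The markers past 2-fold, named after their values were seen, were *Adgre1*, with differences to LPS of 2.27 for CRL1505 and 1.003 for CRL1506, *Fcgr1*, with 2.40 and 0.95, and *Csf1r*, with -1.47 and -0.87. A second *Adgre1* probe gave 1.25 and 0.85, past 2-fold for CRL1505 alone, and a second *Csf1r* probe -1.84 and -0.997. The 3 hepatocyte markers, among them *Alb*, were not on any array, whereas 2 of 3 T cell markers (*Cd3e* and *Cd3d*) and 1 of 3 B cell markers (*Ms4a1*) were on all arrays. The summed signal of the T cell list was 596.9 to 958.1 and that of the B cell list 64.1 to 139.8. Of the 3 fibroblast markers, *Col1a2* was well above background on both strain arrays but not on LPS and *Col1a1* on CRL1506 + LPS alone, with summed signals of 66.6 on LPS, 105.2 on CRL1505 + LPS and 167.5 on CRL1506 + LPS. The part of these transcripts in the results was not tested. In RNA of a whole culture, fewer cells with a transcript and less of it per cell cannot be told apart.

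The main difference lay in *C3* and *Cfb*, which were at least 2-fold higher in CRL1505 + LPS than in LPS, while no member reached 2-fold in CRL1506 + LPS. *C1qa* was lower with both strains, though short of 2-fold. The transcripts of *C1qb*, *C1qc* and *Cfp* were close to their LPS level with CRL1505 and lower with CRL1506. For *Cfp* the size of the latter depended on the probe and the scaling. The receptors *C3ar1* and *C5ar1* were above the LPS level with CRL1505. With CRL1506 *C3ar1* was below the LPS level, whereas *C5ar1* differed from it by less than the SD between probes. *Serping1*, which encodes the C1 inhibitor, did not stand clear of background on the arrays.

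Of the 9 members, 8 could be compared. For CRL1505 + LPS against LPS, 2 were past 2-fold upwards and 0 downwards, where 9.90% of the 15585 genes compared were higher and 8.41% lower by that rule. For CRL1506 + LPS against LPS the counts were 0 and 0, beside 5.67% and 3.53% of 16271 genes. Between the strains 1 member was at least 2-fold higher in CRL1505 + LPS and 0 lower, beside 8.96% and 7.44% of 15730 genes. The median difference of the members was 0.22 for CRL1505 against LPS, -0.40 for CRL1506 against LPS and 0.55 for CRL1505 against CRL1506. The medians over all genes measured on both arrays were 0.06, -0.06 and 0.09. The members lay above 0 in 4 of 8 cases for CRL1505 and in 2 of 8 for CRL1506, and 7 of 8 were higher with CRL1505 than with CRL1506. Of all genes, 54.4%, 41.8% and 56.3% lay above 0 in these comparisons, which share arrays.

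**Figure D1:**
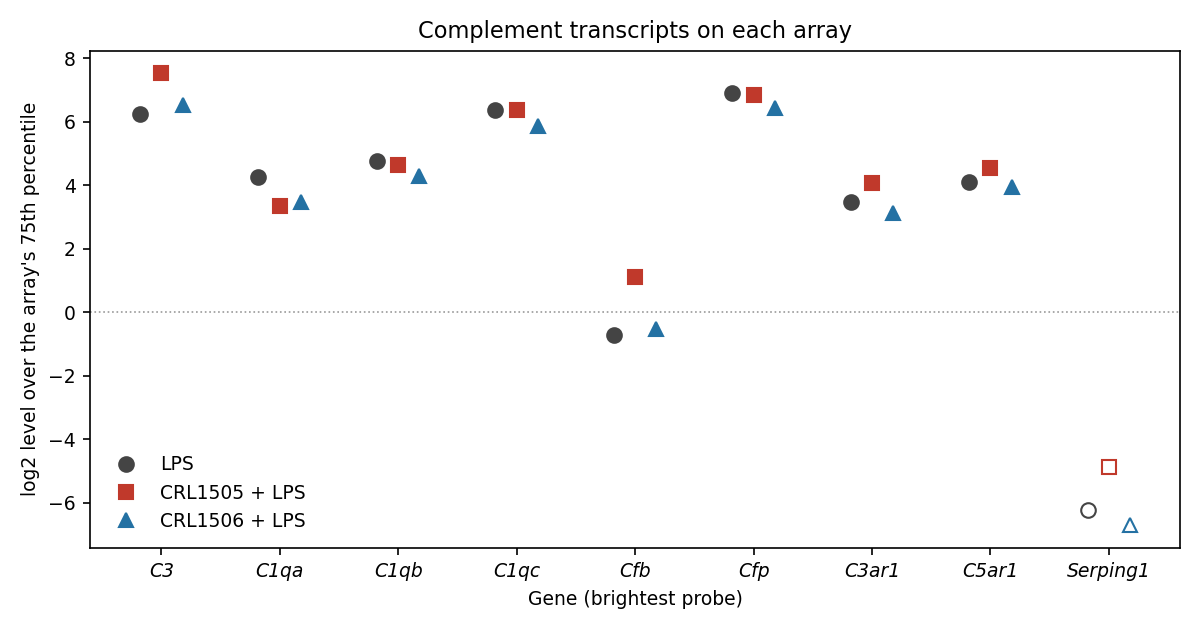
Level of the brightest probe of each complement gene on each array, as log2 over the 75th percentile of the array. Circles are LPS, squares CRL1505 + LPS and triangles CRL1506 + LPS, open symbols were not well above background, and levels of different genes come from different probes and are not comparable. *Cfb* stood at -0.71, 1.12 and -0.54, and *C1qa* at 4.24, 3.35 and 3.47.

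The gene of the central component C3, which is cleaved by every pathway and whose fragment C3b coats microbes, is read by 2 probes at chr17:57343416-57343475 and chr17:57343678-57343737 (mm9, minus strand). The second of them, in the coding part of the transcript, is shown to make clear what was hybridised.
C3 A_55_P2038525: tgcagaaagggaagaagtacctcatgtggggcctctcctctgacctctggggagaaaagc
On the scaled log2 level, *C3* was at 6.23 on LPS, 7.52 on CRL1505 + LPS and 6.53 on CRL1506 + LPS. Its signal before scaling was 55716 ± 5572 on LPS, 94732 ± 9473 on CRL1505 + LPS and 64561 ± 6456 on CRL1506 + LPS, where ± is the error that the scanner software gives for a single spot. CRL1505 + LPS was the highest of the 3 arrays on both scales, followed by CRL1506 + LPS. The difference to LPS was 1.29, or 2.44-fold, for CRL1505 and 0.30, or 1.23-fold, for CRL1506. It exceeded that of 95.35% of 13230 genes for CRL1505 and of 82.26% of 14395 genes for CRL1506. The second probe gave 1.21 and 0.47, so both probes were past 2-fold for CRL1505 alone. For CRL1505 these differences exceeded the SD between probes (0.23), while the spread between arrays and between cultures is unknown. Between the strains the brighter probe gave 0.99, or 1.98-fold, and the other 0.74.

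How the arrays were scaled decided part of this. Under 7 other normalizations the *C3* difference for CRL1505 ranged from 0.78 to 1.58 and reached 2-fold in 6 of them. The low value came from scaling to the spike-in probes, which also moved the median of all genes to -0.45 for CRL1505 and -0.20 for CRL1506, whereas a shift by the array median moved it to 0.35 and -0.27. Relative to the median of all genes, *C3* was higher by 1.10 to 1.23 for CRL1505 in all 7, and by 0.34 to 0.56 for CRL1506.

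Factor B, the protease of the alternative pathway convertase, is encoded by *Cfb* next to *C2* on chromosome 17, with 0 protein-coding genes between them. The sequences of its probes are given since *Cfb* carried the largest difference among the members. Probe A_51_P413866 is placed at chr17:34993502-34993858 (mm9, minus strand), a span of 357 bases for a probe of 60 bases, and hence crosses an intron. Probe A_66_P138911 lies at chr17:34994617-34994676, and both are in the coding part of the transcript.
Cfb A_51_P413866: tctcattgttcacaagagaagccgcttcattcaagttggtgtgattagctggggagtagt
Cfb A_66_P138911: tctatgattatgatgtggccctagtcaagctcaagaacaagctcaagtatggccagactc
On the scaled level the first probe was at -0.71 on LPS, 1.12 on CRL1505 + LPS and -0.54 on CRL1506 + LPS. Its signals before scaling were 455.6 ± 46.1, 1124 ± 113 and 480.8 ± 48.6. CRL1505 + LPS was the highest, and the signals on LPS and CRL1506 + LPS differed by less than the single-spot error. That error does not measure a spread between arrays. The difference to LPS was 1.83, or 3.55-fold, for CRL1505, above that of 98.04% of genes, and 0.17, or 1.12-fold, for CRL1506. Between the strains *Cfb* was 3.16-fold higher with CRL1505, a difference of 1.66. The second probe, with signals of 64.2, 188.3 and 82.1, gave 2.08, 0.45 and 1.63. In all 7 normalizations *Cfb* was at least 2-fold higher with CRL1505, by 1.32 to 2.12 against LPS and by 1.28 to 2.15 against CRL1506. For CRL1506 against LPS it ranged from -0.03 to 0.25, with the sign turned when scaled by the array median.

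Properdin, the product of the X-linked gene *Cfp*, stabilises the alternative convertase. The probe with the higher signal lies at chrX:20502742-20502801 and the other, which crosses an intron, at chrX:20504475-20504676 (mm9, minus strand).
Cfp A_51_P408363: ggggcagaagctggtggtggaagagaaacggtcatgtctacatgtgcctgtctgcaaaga
Cfp A_55_P2814119: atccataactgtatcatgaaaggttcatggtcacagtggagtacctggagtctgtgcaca
Its scaled levels were 6.88 on LPS, 6.84 on CRL1505 + LPS and 6.42 on CRL1506 + LPS. The differences to LPS were -0.05 for CRL1505 and -0.47 for CRL1506, and the second probe gave 0.15 and -0.24. The probes thus differed in sign for CRL1505, at a size below the SD between probes. Hence *Cfb* and *Cfp*, whose products act in the same convertase, lay apart with CRL1505. *Cfp* was 1.34-fold higher with CRL1505 than with CRL1506, a difference of 0.42 that spanned 0.04 to 0.92 over the 7 normalizations. For CRL1506 against LPS it spanned -0.67 to -0.18, and -0.40 to -0.12 relative to the median of all genes. The smallest of these lay below the SD between probes (0.22).

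**Figure D2:**
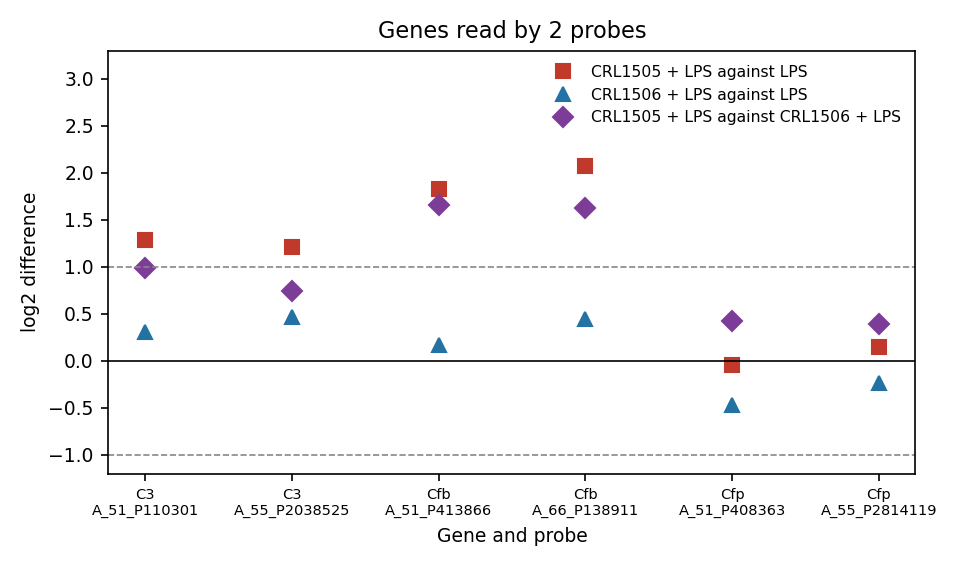
Log2 difference (vertical axis) from each of the 2 probes of *C3*, *Cfb* and *Cfp* in the 3 comparisons, with dashed lines at 2-fold. Both probes of *C3* (1.29 and 1.21) and of *Cfb* (1.83 and 2.08) were past 2-fold for CRL1505 + LPS against LPS, and both of *Cfp* lay near 0 (-0.05 and 0.15).

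C1q is built from A, B and C chains in equal number, encoded by *C1qa*, *C1qb* and *C1qc*, which are neighbours on chromosome 4 with *C1qc* in the middle. The probes lie at chr4:136452409-136452468 (*C1qa*), chr4:136436578-136436637 (*C1qb*) and chr4:136445766-136445825 (*C1qc*), all mm9 and minus strand. Those of the A and B chains are shown because these chains lay apart with CRL1505.
C1qa A_51_P181451: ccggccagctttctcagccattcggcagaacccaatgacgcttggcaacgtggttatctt
C1qb A_51_P351860: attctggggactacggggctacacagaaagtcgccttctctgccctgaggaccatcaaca
The scaled level of *C1qa* was 4.24 on LPS, 3.35 on CRL1505 + LPS and 3.47 on CRL1506 + LPS, with signals before scaling of 14035 ± 1404, 5255 ± 526 and 7713 ± 771. The LPS array was the highest, and the difference between the strains was -0.12. *C1qa* was 1.86-fold lower with CRL1505, a difference of -0.89, and 1.71-fold lower with CRL1506, a difference of -0.77. Of the genes measured, 7.8% had a lower difference for CRL1505 and 4.133% for CRL1506.

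*C1qb* was at 4.76 on LPS, 4.65 on CRL1505 + LPS and 4.29 on CRL1506 + LPS. *C1qc* was at 6.37, 6.36 and 5.87 in the same order. Both were nearest to LPS with CRL1505 and lowest with CRL1506, with differences to LPS of -0.11 and -0.01 for CRL1505 and of -0.47 and -0.50 for CRL1506. A second *C1qc* probe, designed to another transcript of the gene, did not stand clear of background on the arrays. The log2 difference to LPS of *C1qb* minus that of *C1qc* was -0.10 for CRL1505 and 0.03 for CRL1506. That of *C1qa* minus *C1qb* was -0.78 for CRL1505 and -0.30 for CRL1506, and that of *C1qa* minus *C1qc* was -0.88 and -0.27. The A chain thus lay below the other chains with both strains, and the gap was wider with CRL1505. With CRL1506 the gaps were little larger than the SD between probes of the same gene (0.22), and each chain is represented by 1 probe.

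The call for *C1qa* depends on the scaling, since its difference for CRL1505 ranged from -1.40 to -0.60 and was past 2-fold in 4 of 7 normalizations. Relative to the median of all genes the range was -1.07 to -0.95. On the LPS array, 5 of the 20 spots nearest to the *C1qa* spot had uneven pixels, though the spot itself had not. *C1qa* has 1 probe and therefore no value once such places are left out. The part of these spots in the result was not tested. For *C1qb* and *C1qc* with CRL1505 the sign turned under the shift by the array median, to 0.18 and 0.28.

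The receptor of C3a, encoded by *C3ar1*, is read at chr6:122798222-122798281 (mm9, minus strand). Its scaled level was 3.46 on LPS, 4.06 on CRL1505 + LPS and 3.12 on CRL1506 + LPS, so that LPS lay between the strains. The differences to LPS were 0.60, or 1.52-fold higher, for CRL1505 and -0.34, or 1.27-fold lower, for CRL1506. Before scaling the signals were 8174 ± 817 on LPS, 8635 ± 863 on CRL1505 + LPS and 6062 ± 606 on CRL1506 + LPS. Those of LPS and CRL1505 + LPS differed by less than the single-spot error, but these signals also carry the brightness of each array. Over the 7 normalizations the differences were 0.10 to 0.90 for CRL1505 and -0.54 to -0.24 for CRL1506, each with 1 sign throughout. Relative to the median of all genes they were 0.39 to 0.55 and -0.29 to -0.21, the latter near the SD between probes (0.22). With CRL1505 *C3ar1* was 1.92-fold above CRL1506, a difference of 0.94.

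*C5ar1* encodes the receptor of C5a, which draws neutrophils and macrophages to sites of infection, and its probe is placed at chr7:16832094-16832135, where the coordinates cover 42 bases. It was at 4.09 on LPS, 4.54 on CRL1505 + LPS and 3.94 on CRL1506 + LPS. The order of the arrays was that of *C3ar1*, with differences to LPS of 0.46 for CRL1505 and -0.15 for CRL1506. The latter was smaller than the SD between probes (0.22), and was -0.07 relative to the median of all genes. Scaling to the spike-in probes brought the difference for CRL1505 to -0.05. With CRL1505 it was 1.52-fold higher than with CRL1506, a difference of 0.60. Between the 2 receptors the gap in the differences to LPS, *C3ar1* minus *C5ar1*, was 0.15 for CRL1505 and -0.20 for CRL1506, smaller than the SD over probes of the same gene.

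**Figure D3:**
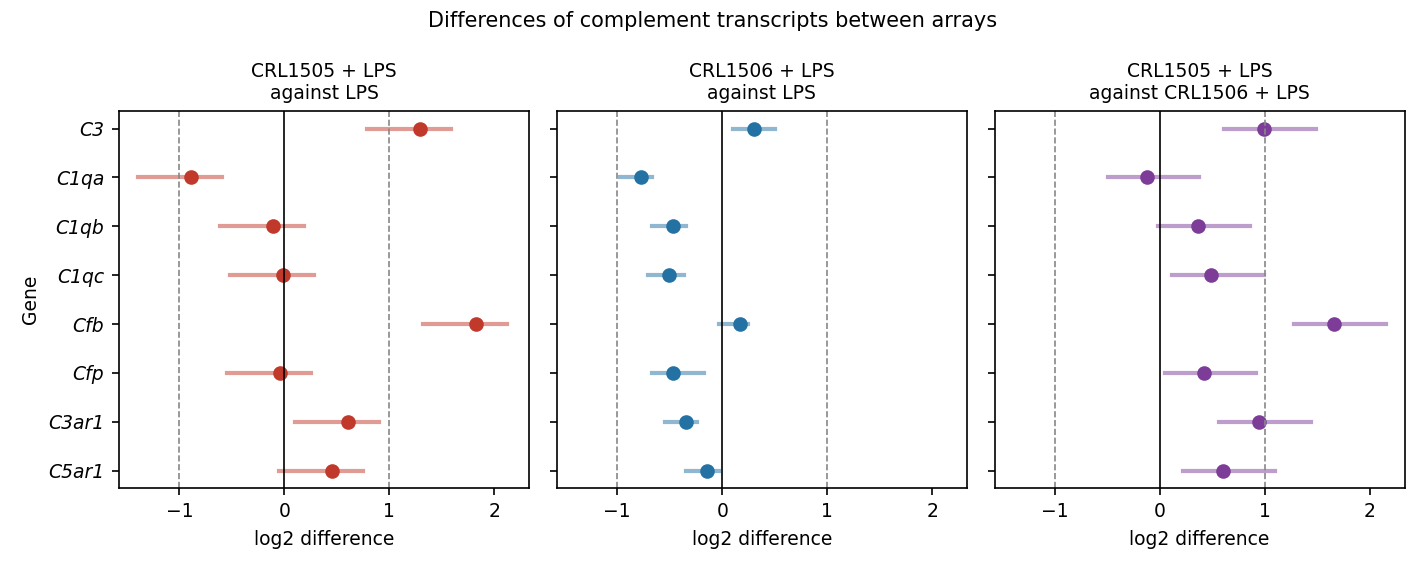
Log2 difference of the 8 complement genes that could be compared, in 3 comparisons. Points are the values at 75th percentile scaling, bars run from the lowest to the highest value over 7 other normalizations and are not replicate errors, and dashed lines mark 2-fold. *Cfb* lay beyond 2-fold along its whole bar for CRL1505 against LPS (1.32 to 2.12) and against CRL1506 (1.28 to 2.15).

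The probe of *Serping1*, at chr2:84605663-84605722, had signals of 9.79 on LPS, 17.6 on CRL1505 + LPS and 6.66 on CRL1506 + LPS. The lowest signals well above background on the same arrays were 33.3, 29.6 and 33.1, so that only these bounds can be given and no fold.

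Across both comparisons with LPS, the genes nearest to *Cfb* among 13123 genes measured on all arrays were *Slc36a1*, *Fos* and *9430015G10Rik*. They lay at log2 distances of 0.042, 0.078 and 0.081 over the pair of differences, and 44 genes lay within 0.25. For *C3* they were *Ikzf1*, *Anxa4* and *Fam53c*, at 0.023, 0.028 and 0.035, with 138 genes within 0.25. The likeness is over 2 differences that share the LPS array.

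**Figure D4:**
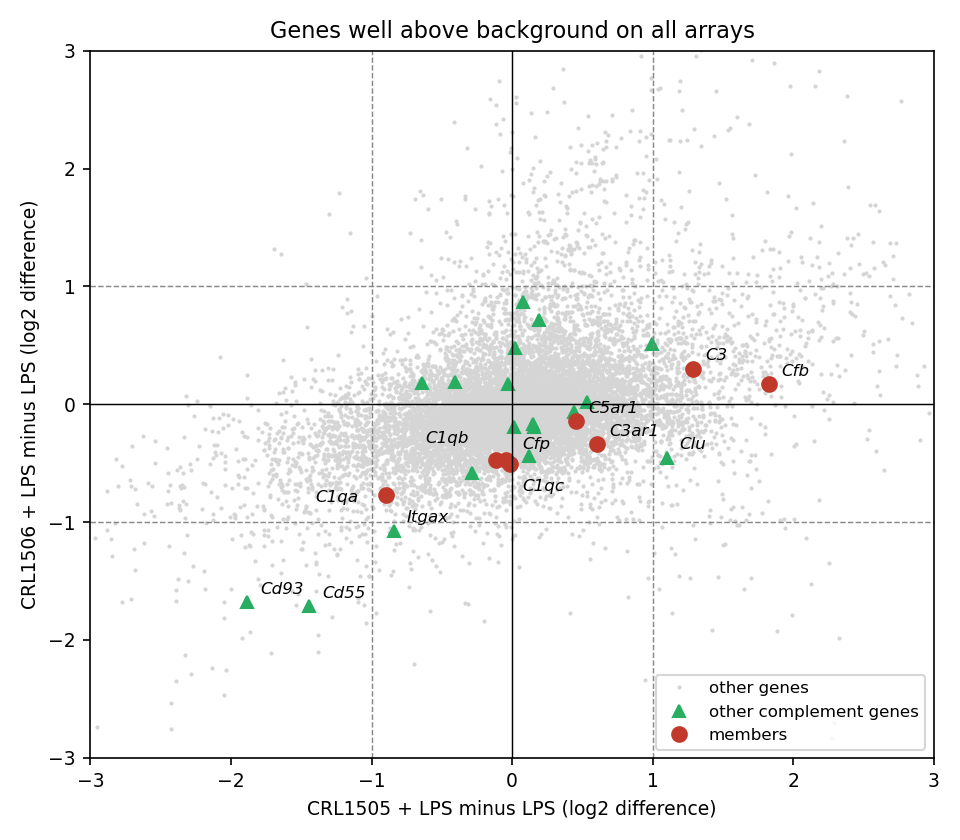
Difference to LPS with CRL1506 (vertical axis) against that with CRL1505 (horizontal axis), both log2, for genes well above background on all arrays; points beyond 3 are not drawn. Circles are the members, triangles other complement genes, dots other genes, and dashed lines mark 2-fold. *C3* (1.29, 0.30) and *Cfb* (1.83, 0.17) lay to the right, and *Cd93* (-1.88, -1.68) at the lower left.

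The rest of the cascade was read from a list of 46 further complement genes. Of these, 18 were well above background on all arrays and 17 on none. Measured on all arrays were 3 of 4 classical pathway proteases, both lectin pathway proteases, 7 of 8 receptors, 2 of 7 terminal components, 2 of 8 membrane regulators, 1 of 7 soluble regulators and 1 of 6 lectin pathway recognition molecules. *Cfd*, the protease that cleaves factor B, and *Hc*, which encodes C5, were on none. For CRL1505 against LPS, 24 of the 46 could be compared, with 3 past 2-fold upwards and 3 downwards, beside the 9.90% and 8.41% of all genes. For CRL1506 there were 29, again with 3 and 3, beside 5.67% and 3.53%. Between the strains there were 27, with 1 higher and 3 lower in CRL1505 + LPS, beside 8.96% and 7.44%. The medians of those measured on both arrays were 0.05, 0.03 and 0.25.

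*C2*, the classical pathway counterpart of factor B and its neighbour, had levels of -4.52 on LPS, not well above background, -2.74 on CRL1505 + LPS and -3.72 on CRL1506 + LPS. It was thus at least 3.33-fold higher with CRL1505 and at least 1.70-fold higher with CRL1506 than with LPS. The bound for CRL1505 was past 2-fold in 5 of 7 normalizations, and between the strains *C2* differed by 0.97. *C4b*, the partner of C2 in that convertase, was at -2.96 on CRL1506 + LPS, 0.04 above LPS, but not well above background on CRL1505 + LPS. It was at least 2.18-fold lower with CRL1505 than with LPS and at least 2.25-fold lower than with CRL1506. A second *C4b* probe was at -4.23 on LPS, too low for a bound against CRL1505 + LPS, and differed by 0.67 for CRL1506. *C4a* is a near-identical copy, and probes of the pair may read both genes. Hence *C2* and *C4b* lay on opposite sides of LPS for CRL1505, though the *C4b* bound reached 2-fold in 2 of 7 normalizations.

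Among the regulators, clusterin, an inhibitor of the membrane attack complex, is encoded by *Clu* and was at -0.12 on LPS, 0.98 on CRL1505 + LPS and -0.57 on CRL1506 + LPS. The differences were 1.10 for CRL1505, -0.45 for CRL1506 and 1.56 between the strains. For CRL1505 against LPS it was past 2-fold in 3 of 7 normalizations (0.60 to 1.40), and between the strains in all 7. A second *Clu* probe was well above background on LPS alone, at -4.14, too low for a bound against CRL1505 + LPS. *Cd55*, which encodes decay-accelerating factor, differed by -1.44 for CRL1505 and -1.72 for CRL1506 at its brightest probe, past 2-fold in 5 of 7 normalizations for each strain (-1.95 to -0.19 and -2.06 to -0.52). Its spot on LPS was uneven, and another *Cd55* probe was higher with both strains, at -5.04 on LPS, not well above background, -3.26 on CRL1505 + LPS and -3.94 on CRL1506 + LPS. *Susd4*, a membrane inhibitor, was not well above background on LPS, and was at least 2.67-fold higher with CRL1505 and at least 2.46-fold higher with CRL1506, past 2-fold in 4 and 5 of 7 normalizations. A second *Susd4* probe did not stand clear of background on any array.

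*Cpn1*, the catalytic chain of the carboxypeptidase that trims C3a and C5a, was 2.82 higher with CRL1506 on the log2 scale. The difference ranged from 1.28 to 2.90 over the normalizations, and the spots on LPS and on CRL1506 + LPS were uneven. A second *Cpn1* probe did not stand clear of background on any array. *Csmd1* was at least 92.4-fold higher with CRL1506 at 1 of its 7 probes, and 5 of the 20 spots nearest to it were uneven on that array. The other *Csmd1* probes did not stand clear of background. Neither gene had a value for CRL1505 against LPS, and between the strains they were at least 6.82-fold and at least 72.3-fold lower with CRL1505.

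Among the receptors, *Cd93*, first described as a C1q receptor of phagocytes, was at -0.57 on LPS, -2.45 on CRL1505 + LPS and -2.24 on CRL1506 + LPS. It was 3.69-fold lower with CRL1505 and 3.20-fold lower with CRL1506, past 2-fold in all 7 normalizations for each strain. *Cd93* and *C1qa* were thus both below LPS with both strains. *Itgax*, the alpha chain of complement receptor 4, differed by -0.84 for CRL1505 and -1.07 for CRL1506, the latter past 2-fold in 4 of 7 normalizations, with 7 of the 20 nearest spots uneven on LPS. The other *Itgax* probes did not stand clear of background on any array. *C5ar2*, the second C5a receptor and a neighbour of *C5ar1*, differed by 0.44 for CRL1505 and -0.06 for CRL1506.

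Sequence upstream of the start site was given for 6 of the members (RefSeq, GRCm38.p6), and for *C1qa*, *Cfb* and *Serping1* it was not. Searched on both strands were TTGCNNAA (C/EBP), GAGGAA (a PU box, as bound by PU.1), GGGNNNNNCC (a loose kappaB pattern), TTTCNNTTTC (the core of an interferon-stimulated response element) and TTCNNNGAA (a STAT site), and 9.56%, 23.3%, 45.8%, 2.98% and 7.02% of 32851 upstream sequences held them. The upstream regions of *C3*, the member past 2-fold that has one, and of *C1qb* and *C1qc*, which lay together, are printed with all matches in capitals. They lie at chr17:57228137-57228386, chr4:136886201-136886450 and chr4:136892937-136893164, each on the minus strand and ending 1 base before the start.
C3: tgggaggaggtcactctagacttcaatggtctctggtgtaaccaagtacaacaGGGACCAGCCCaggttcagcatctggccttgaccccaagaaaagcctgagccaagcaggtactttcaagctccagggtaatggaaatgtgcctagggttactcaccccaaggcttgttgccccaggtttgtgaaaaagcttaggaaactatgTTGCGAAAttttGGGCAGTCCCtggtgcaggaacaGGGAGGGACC
C1qb: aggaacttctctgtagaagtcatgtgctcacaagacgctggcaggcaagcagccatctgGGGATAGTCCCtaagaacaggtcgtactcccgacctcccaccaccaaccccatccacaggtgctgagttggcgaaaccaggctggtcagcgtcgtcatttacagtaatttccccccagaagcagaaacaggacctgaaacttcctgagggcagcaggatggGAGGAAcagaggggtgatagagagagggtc
C1qc: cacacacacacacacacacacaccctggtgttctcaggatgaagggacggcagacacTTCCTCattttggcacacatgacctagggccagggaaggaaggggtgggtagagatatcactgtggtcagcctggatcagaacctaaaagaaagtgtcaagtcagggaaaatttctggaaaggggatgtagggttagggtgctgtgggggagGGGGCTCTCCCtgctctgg
That of *C3* held 1 C/EBP match at -45 to -38, and kappaB patterns at -197, at -33 and at -10, the first of them as a pair of overlapping matches. *C1qb* and *C1qc* each held 1 PU box, at -30 to -25 and at -193 to -188, and overlapping kappaB patterns. *C3ar1* and *Cfp* held 1 kappaB pattern each, and the 48 bases of *C5ar1* none of the 5 motifs. None of the 6 held the interferon or STAT pattern. A match of such short patterns is a description of the letters.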

How the data were processed

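RNA of RAW macrophages was measured on 3 arrays, 1 for each condition. The authors deposited the Feature Extraction output of each array (version 12.0.3.1 in the files, 10.7.3.1 in the design text), whose processed signal is an intensity with local background and spatial trends removed and no normalization between arrays. The authors also deposited log2 values normalized between arrays, used as an alternative; limma and GeneSpring are named in the paper, and limma also in the submitters' processing notes.

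Spots marked as outliers (241 to 467 an array) were left out, and no gene spot was saturated. Signals were taken as log2 minus the 75th percentile of the 59305 gene spots. A gene was represented by its brightest probe. With 1 side not well above background, the lowest level well above background there, or the probe's own if higher, gave a bound; with neither side, or a bound under 1, there was no value. Without replicates the study's t-test could not be used. The number of arrays limits the precision.

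The members, the 46 further complement genes, the markers and the motifs were chosen with earlier results of these data known. Named are all members, further complement genes past 2-fold in a comparison, and the 3 genes nearest to each of *Cfb* and *C3*. Outside this rule *C4a*, *C5ar2*, *Cfd* and *Hc* are named as well, none of them past 2-fold. A spot was uneven if its mean pixel exceeded its median pixel by over 0.2 on the log2 scale. Alternatives were 7 normalizations (array median, 75th percentile over the probes detected throughout, spike-in probes, quantile, cyclic loess, normexp with an offset of 50, deposited log2 values) and 6 other settings. Python 3.11.15, pandas 2.3.3, NumPy 2.4.6, R 4.3.3 and limma 3.58.1 were used. The call at 2-fold was tried on simulated data. These did not cover the bounds, the outlier and uneven spots or the other normalizations. Probe coordinates are those of the files (mm9).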

Additional observations from a re-analysis of the deposited data

Results flagged for a closer look

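The difference of *C3ar1* to LPS was 0.60 for CRL1505 and -0.34 for CRL1506 on the log2 scale, so that the strains lay on opposite sides of the LPS array. Relative to the median of all genes the value for CRL1506 was -0.27, near the SD between probes (0.22), and it came from 1 probe. The difference between the strains was not tested, since each condition has 1 array and both differences share the LPS array.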

How the results depend on the processing

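Of 95 values of single members in each comparison, under the alternatives other than the threshold, 77 moved by less than the SD between probes for CRL1505 against LPS, 94 for CRL1506 against LPS and 75 between the strains. The members past 2-fold for CRL1505 were 2, but 1 with spike-in scaling, 3 without the filter on dim probes and 3 at 1.5-fold; the number at least 2-fold lower was 0, and 1 with the 75th percentile over detected probes, spike-in scaling, quantile normalization, the deposited log2 values or a threshold of 1.5-fold. The last threshold also gave 1 lower member for CRL1506 and 4 higher between the strains, where the array median gave 4 and no filter on dim probes 2 in place of 1. Signs turned for *C1qb*, *C1qc*, *C5ar1* and *Cfp* (CRL1505), *Cfb* (CRL1506), and *C1qa* and *C1qb* (between strains). The counts of further complement genes were less steady. Those higher with CRL1505 were 3, but 1 with spike-in scaling, 0 with normexp, 0 with the deposited values, 5 without the dim filter and 1 with only probes detected on all arrays. Those lower were 3, but 6, 1, 1 and 9 under the first 4 of these and 6 at 1.5-fold. For CRL1506, 3 were higher, but 1 without uneven spots, 5 without the dim filter, 0 with only detected probes and 9 at 1.5-fold; 3 were lower, but 1 with normexp, 1 with the deposited values, 1 without uneven spots and 5 without the dim filter. Between the strains, 1 was higher, but 4 with the array median, 2 with quantile, 2 with cyclic loess, 0 with the mean over probes, 3 without the dim filter and 2 at 1.5-fold; 3 were lower, but 5 with the percentile over detected probes, 6 with spike-in scaling, 1 without uneven spots, 7 without the dim filter, 0 with only detected probes and 7 at 1.5-fold. Without uneven spots *Cd55* turned to 0.63 for CRL1506, and the mean over probes turned *Clu* to -0.48 for CRL1505 and *Cd55* to 0.23 for CRL1505 and 0.19 for CRL1506. Over all genes, counts ranged from 796 to 2966 higher and 669 to 3667 lower for CRL1505, 416 to 2062 and 234 to 1502 for CRL1506, and 816 to 3497 and 430 to 3801 between the strains. The causes were not tested. Fewer genes could be compared where filters were stricter. The slide as a block could not be fitted. No paired analysis was possible because each condition has 1 array, and for the same reason no replicate could be left out.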
